A study of Mus musculus with 6 samples.

Results

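The 10 genes described here carry, receive and report Wnt signals: the ligands Wnt7a, Wnt7b and Wnt10a, the R-spondin receptors Lgr4 and Lgr6, the Wnt receptor Fzd7, its co-receptors Lrp5 and Lrp6, the effector Ctnnb1 and the target gene Axin2. They were taken by symbol from the 23481 genes of a read count table of 4T1 cells, a mouse mammary carcinoma line. The table's own title writes 4T1_T, and the labels, which write 4T1, do not say what the added letter stands for. Wnt7a was selected on its low read level and Lgr6 on its high read level in library A of the hairpin shAsns-1, so the values of that library against the control are given as a description, with no test. The other members complete the route from ligand to target, and the question put to the data was whether Axin2 follows.

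Cells were infected with 1 of 3 short hairpin RNAs: shAsns-1 and shAsns-2 target Asns, which encodes asparagine synthetase, and shRenilla, against a luciferase absent from mouse cells, served as the control. All groups were these cells grown in DMEM with non-essential amino acids. The labels list replicates A and B for each hairpin and do not say whether these were separate cultures, so p-values measure only the spread between libraries, which may be technical. For shAsns-1 B the table lists 0 reads at every gene, which left 1 library of shAsns-1, 2 of shAsns-2 and 2 of shRenilla. Levels are given as CPM, read counts scaled to a common library size by the TMM method. Asns stood at 108.8 CPM in shAsns-1 A, against 58.7 CPM (A) and 56.2 CPM (B) in shRenilla and 46.5 CPM (A) and 44.7 CPM (B) in shAsns-2. Asns was therefore higher than the control in the first of these libraries, against its label, and from here on it goes by the name of the library labelled shAsns-1. For Asns in shAsns-2 the log2 fold change was -0.34 (SE 0.0882, edgeR adjusted p = 0.216), which did not pass the test. With a replicate block it did (-0.33, edgeR adjusted p = 0.0388), a setting that raised the genes called in shAsns-2 from 8 to 178.

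Wnt proteins are secreted, lipid-modified ligands that bind a Frizzled receptor together with the co-receptor Lrp5 or Lrp6. Binding halts the destruction complex, so that beta-catenin, the product of Ctnnb1, accumulates and joins TCF/LEF factors at target genes, of which Axin2 is the one most widely used as a readout in mammary and other epithelia. R-spondins, bound by Lgr4, Lgr5 or Lgr6, keep Wnt receptors at the cell surface by removing the ubiquitin ligases Rnf43 and Znrf3. Beta-catenin is controlled mainly as a protein and also serves in cell junctions, so the level of Ctnnb1 messenger RNA is not a measure of pathway activity.

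The libraries held 10244753 to 15955168 gene reads, so that 3 reads, the limit that a count of 0 allows, corresponded to 0.188 to 0.291 CPM. The library labelled shAsns-1 had reads at 17672 genes, and the others had reads at 15052 to 15392. The olfactory receptor genes, which most cells keep silent, numbered 1122 and summed to 8.07 to 12.1 CPM, except for 40.9 CPM in the library labelled shAsns-1. Epithelial markers summed to 904 CPM in the library labelled shAsns-1 and to 1089 to 1167 CPM in the others, and 4 of the 8 tested (of 9 listed) fell against shRenilla there, with Krt14 at a log2 fold change of -2.21 (SE 0.237, edgeR adjusted p = 5.3e-05). Fibroblast markers summed to 38.9 CPM there and 28.8 to 30.4 CPM elsewhere, with Lum at 0 in every library and 1 of 7 markers high enough to be tested. Leukocyte markers summed to 4.39 to 6.45 CPM (6.45 CPM in the library labelled shAsns-1, 1 of 6 tested) and endothelial markers to 0.364 to 1.46 CPM (0 of 4 tested). The olfactory receptor, epithelial and fibroblast sums move with the library that separates Wnt7a and Lgr6. The leukocyte and endothelial sums do not, since shRenilla B reached 6.43 CPM for leukocyte and shAsns-2 A 1.46 CPM for endothelial markers. The part of all these values in the results below was not tested.

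The start regions of the genes the results turn on are printed so that the target can be set beside the ligand and the receptor. Each line is the 250 bases before a RefSeq transcription start (build GRCm38.p6), in lower case, with the TCF/LEF core CTTTG, on either strand, in capitals. Axin2 lies at chr11:108920349-108950783 on the plus strand (GENCODE M21) and its window at chr11:108920099-108920348. Wnt7a lies at chr6:91363981-91411363 on the minus strand, with its window at chr6:91411354-91411603, and Lgr6 at chr1:134983301-135105276 on the minus strand, with its window at chr1:135105277-135105526. Sp5, another direct Wnt target, is shown for contrast, with its window at chr2:70474673-70474922 on the plus strand.
Axin2: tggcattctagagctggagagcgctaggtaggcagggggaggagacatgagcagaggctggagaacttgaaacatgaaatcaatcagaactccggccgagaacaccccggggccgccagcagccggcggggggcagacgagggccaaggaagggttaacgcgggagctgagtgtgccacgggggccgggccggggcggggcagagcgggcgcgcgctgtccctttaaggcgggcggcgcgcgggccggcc
Wnt7a: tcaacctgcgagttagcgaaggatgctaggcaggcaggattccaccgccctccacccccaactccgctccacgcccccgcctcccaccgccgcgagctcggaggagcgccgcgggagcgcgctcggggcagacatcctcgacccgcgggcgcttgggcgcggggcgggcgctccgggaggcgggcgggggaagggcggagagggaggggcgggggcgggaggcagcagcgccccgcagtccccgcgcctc
Lgr6: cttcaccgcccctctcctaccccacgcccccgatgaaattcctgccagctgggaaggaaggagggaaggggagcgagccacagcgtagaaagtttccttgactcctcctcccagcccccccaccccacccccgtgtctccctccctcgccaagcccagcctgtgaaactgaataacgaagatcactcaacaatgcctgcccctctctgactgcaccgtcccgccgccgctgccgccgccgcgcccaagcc
Sp5: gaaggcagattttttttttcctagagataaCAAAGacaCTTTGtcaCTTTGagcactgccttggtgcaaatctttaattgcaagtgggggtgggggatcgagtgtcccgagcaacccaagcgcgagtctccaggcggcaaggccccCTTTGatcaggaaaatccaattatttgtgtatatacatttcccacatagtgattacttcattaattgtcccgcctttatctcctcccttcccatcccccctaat
The windows of Axin2, Wnt7a and Lgr6 hold no CTTTG on either strand, and that of Sp5 holds 4, of which 1 extends to CTTTGAT. Of 7 windows of 6 members in the RefSeq table, 1 holds CTTTG (Fzd7) and 0 hold CTTTGAT. Of 16 windows of 10 other direct targets, 8 hold CTTTG and 2 hold CTTTGAT, with Sp5 counted in both, so Sp5 does not stand for the rest. Of 32851 windows in the table, 48.6% hold CTTTG and 3.21% hold CTTTGAT, each counted on both strands, with every CTTTGAT counted as a CTTTG too. The match is a description of these letters in these windows and says nothing of binding.

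Wnt7a, selected on its low level in the library labelled shAsns-1, had the lowest log2 fold change there among the tested ligands. Wnt9a (-1.11, named after its values were seen), Wnt10a (-0.98) and Wnt10b (-0.35) also lay below all 4 others there, and Wnt7b and Wnt2b did not. The level of Wnt7a was 2.41 CPM in that library, 7.57 and 10.5 CPM in the shAsns-2 libraries and 11.8 and 8.30 CPM in the shRenilla libraries (A, then B), from 25, 78, 145, 189 and 120 reads. The library labelled shAsns-1 lay below all 4 others, while the shAsns-2 and shRenilla libraries overlapped. Counting error alone put the level in the library labelled shAsns-1 between 1.56 and 3.55 CPM (exact 95% Poisson interval), and its ratio to shRenilla A at 0.203 (95% interval 0.128 to 0.309) and to shRenilla B at 0.290 (0.180 to 0.449). Against shRenilla this was a log2 fold change of -2.07 (SE 0.333), the 38th lowest of 12457 genes tested, in a contrast where edgeR called 4.37% of genes and 2.31% as higher. Since Wnt7a was selected on that library, its low rank follows from that choice, and the counting intervals are no test of a difference. Fewer cells of a type and less RNA per cell cannot be told apart in such bulk samples. In shAsns-2 the log2 fold change of Wnt7a was -0.14 (SE 0.191), with a 95% interval of 0.687 to 1.20 for the fold and an edgeR adjusted p of 0.859. Its sign turned without shAsns-2 A (0.06) and without shRenilla A (0.15), and the test placed no direction on it.

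Wnt7b, the close relative of Wnt7a, was the most abundant Wnt ligand in every library. It stood at 58.1 CPM in the library labelled shAsns-1, at 58.0 and 57.8 CPM in shAsns-2 and at 52.8 and 55.9 CPM in shRenilla. The shAsns-2 libraries lay above both shRenilla libraries by a small margin, with a log2 fold change of 0.09 (SE 0.0870) and a fold between 0.938 and 1.21 (edgeR 95% interval, adjusted p = 0.773). In the library labelled shAsns-1 the log2 fold change was 0.10 (SE 0.108). Of the exon bases of Wnt7b, 6.61% are shared with AU022754, and whether the counting used strand is not given in the sources used.

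Wnt10a, a ligand of skin appendages and fat precursors, was the lowest of the 3 ligands. Its level was 1.35 CPM in the library labelled shAsns-1, 3.59 and 2.91 CPM in shAsns-2 and 2.57 and 2.77 CPM in shRenilla, from 14, 37, 40, 41 and 40 reads. The library labelled shAsns-1 was lowest and both shAsns-2 libraries were above both shRenilla libraries. Its log2 fold change was -0.98 (SE 0.416) in the library labelled shAsns-1, 227th lowest of the genes tested, and its ratio by counting to shRenilla A, 0.524, had a 95% interval of 0.264 to 0.982. In shAsns-2 the log2 fold change was 0.27 (SE 0.263), with a fold between 0.821 and 1.77 (edgeR adjusted p = 0.776).

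**Figure D1:**
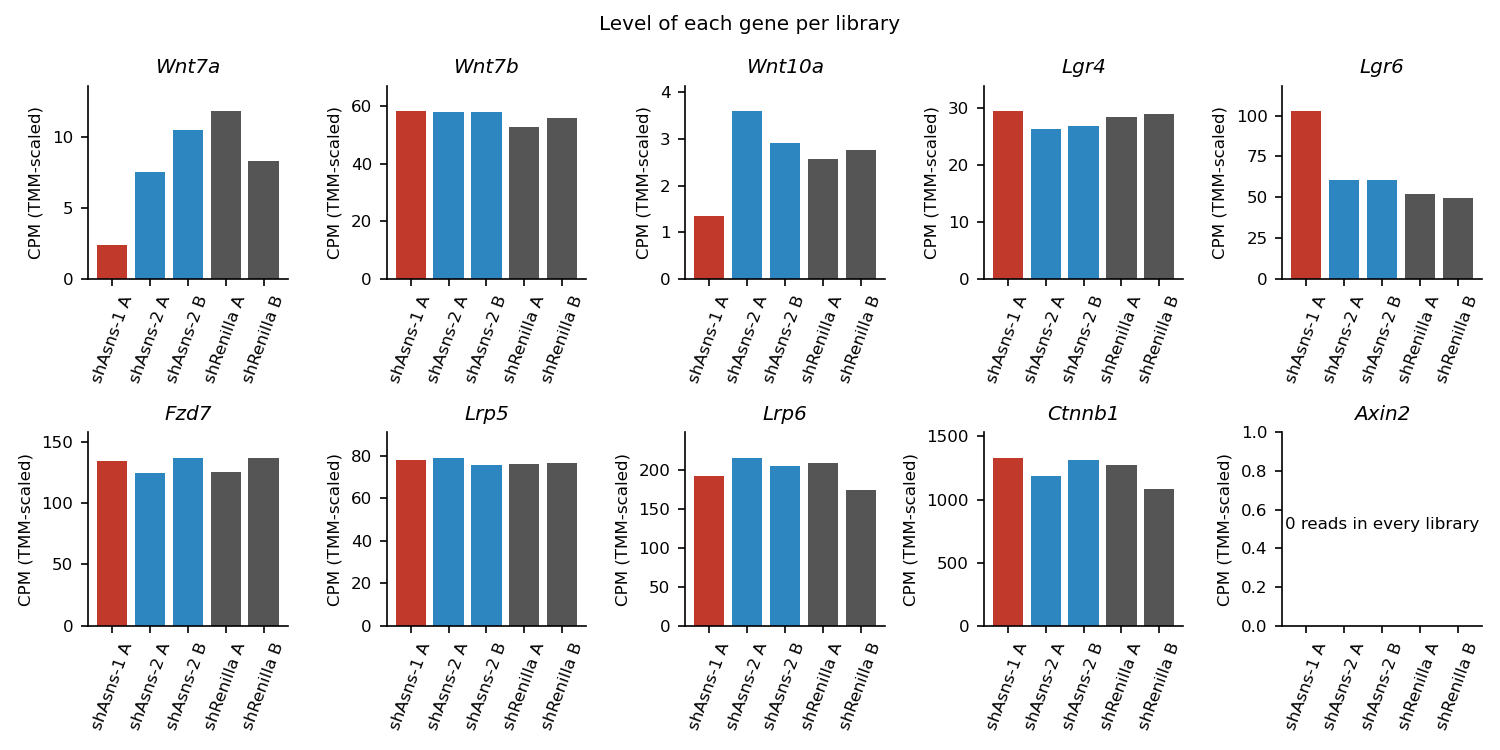
Level of each gene in CPM (TMM-scaled, each panel on its own axis from 0) in the library labelled shAsns-1 (red), shAsns-2 A and B (blue) and shRenilla A and B (grey), each bar 1 library. Wnt7a and Wnt10a are lowest and Lgr6 highest in the library labelled shAsns-1, and Axin2 has 0 reads in all 5.

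The make-up of the ligand pool was given on a per length scale, as RPKM (CPM per kilobase of exon). Summed over all Wnt genes, the level was 15.8 RPKM in the library labelled shAsns-1, 18.9 and 19.0 RPKM in shAsns-2, and 18.8 and 17.9 RPKM in shRenilla. Wnt7b made up 75.3% of that sum in the library labelled shAsns-1, 62.7 and 62.1% with shAsns-2, and 57.4 and 63.9% in shRenilla. Wnt7a made up 4.81% in the library labelled shAsns-1 and 12.6, 17.5, 19.9 and 14.65% in the others in the same order. The ratio of Wnt7b to Wnt7a was thus 15.6 in the library labelled shAsns-1 and 2.89 to 4.96 elsewhere, while the level of Wnt7b itself spanned only 52.8 to 58.1 CPM. Wnt7a was selected on its low level in the library labelled shAsns-1. The shares and the ratio there follow in part from that choice and are a description only.

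Lgr6, which binds R-spondins and marks stem cells of skin and other epithelia, was selected on its high level in the same library. Its level was 102.7 CPM in the library labelled shAsns-1, 60.8 and 60.7 CPM in the shAsns-2 libraries and 52.1 and 49.5 CPM in the shRenilla libraries, from 1067, 626, 834, 832 and 716 reads. The library labelled shAsns-1 was above all others, and the shAsns-2 libraries lay between it and the shRenilla libraries without overlap. Its log2 fold change was 1.01 (SE 0.101) in the library labelled shAsns-1, 222nd highest of the genes tested. Its counting ratios were 1.97 (95% interval 1.80 to 2.16) to shRenilla A and 2.07 (1.88 to 2.28) to shRenilla B. Lgr6 was selected on that library, so its high rank follows from that choice. These intervals cover counting error only and are no test of a difference. In shAsns-2 Lgr6 was at a log2 fold change of 0.26 (SE 0.0866), a fold of 1.19 with a 95% interval of 1.05 to 1.36. That value reached an unadjusted edgeR p of 0.00890 and did not pass after adjustment over all genes (adjusted p = 0.346). Over the 13 alternatives the adjusted p ranged from 0.150 to 1.00 and the log2 fold change from 0.22 to 0.30, so its direction held in each and no call was made in any.

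Lgr4, the R-spondin receptor of wide distribution, showed no such separation. It stood at 29.4 CPM in the library labelled shAsns-1, at 26.4 and 26.8 CPM in shAsns-2 and at 28.4 and 29.0 CPM in shRenilla. Its log2 fold change was 0.04 (SE 0.127) in the library labelled shAsns-1 and -0.11 (SE 0.102) with shAsns-2, where both libraries lay below both controls and the fold had a 95% interval of 0.800 to 1.08 (edgeR adjusted p = 0.775). Lgr5 was too low to be tested. On the RPKM scale Lgr6 exceeded Lgr4 by a ratio of 2.99 in the library labelled shAsns-1, 1.98 and 1.94 with shAsns-2, and 1.58 and 1.47 in shRenilla. Lgr6 made up 74.9% of the summed Lgr4, Lgr5 and Lgr6 RPKM in the library labelled shAsns-1, 66.3 and 65.9% with shAsns-2, and 61.1 and 59.3% in shRenilla. The share of Lgr6 was thus highest in the single library on which Lgr6 was selected, and higher in both shAsns-2 libraries than in both shRenilla libraries.

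**Figure D2:**
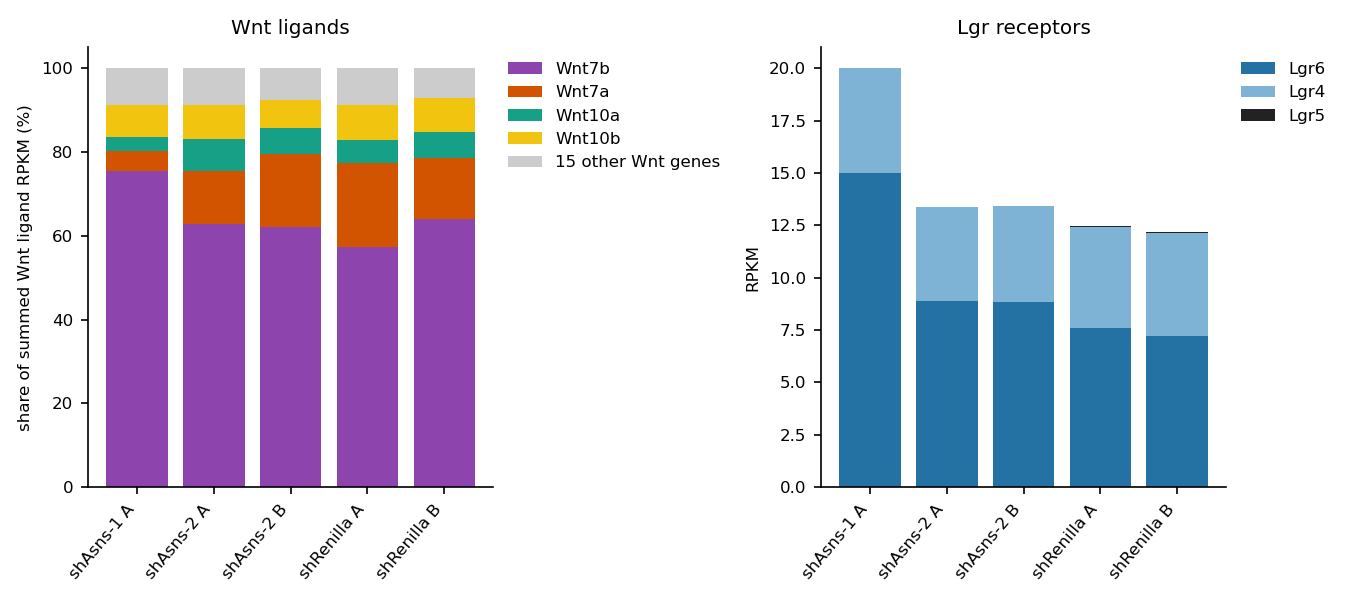
Left, share of the summed RPKM of all Wnt genes taken by each ligand (percent) in each library. Right, RPKM of Lgr6, Lgr4 and Lgr5 stacked by library; Wnt7b takes 57.4 to 75.3% of the ligand sum, and the Lgr6 segment is 14.99 RPKM in the library labelled shAsns-1 against 7.23 to 8.87 RPKM elsewhere.

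The receptor Fzd7 and the co-receptors Lrp5 and Lrp6 differed little between hairpins. Fzd7, a Frizzled receptor found in mammary basal cells, was at 134 CPM in the library labelled shAsns-1, 124 and 136 CPM in shAsns-2 and 125 and 137 CPM in shRenilla. Lrp5 was at 78.2, 79.1, 75.6, 76.3 and 76.8 CPM in the same order. Lrp6 was at 192, 216, 206, 209 and 174 CPM, with the widest spread between control libraries of the 3. All groups overlapped at each of these genes. In shAsns-2 the log2 fold changes were -0.01 (95% interval of the fold 0.879 to 1.13) for Fzd7, 0.01 (0.894 to 1.14) for Lrp5 and 0.14 (0.964 to 1.26) for Lrp6. The edgeR adjusted p-values of these genes were 0.986, 0.967 and 0.637. The signs for Fzd7 and Lrp5 turned in some alternatives, none with a call. Against shRenilla, the log2 fold changes in the library labelled shAsns-1 were 0.03, 0.03 and 0.00.

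Ctnnb1, which codes for beta-catenin, was by far the most abundant member. It stood at 1331 CPM in the library labelled shAsns-1, 1190 and 1316 CPM in shAsns-2 and 1273 and 1079 CPM in shRenilla. The shAsns-2 and shRenilla libraries overlapped, and the library labelled shAsns-1 was highest by a margin of 1.01 to shAsns-2 B as a ratio. The log2 fold change was 0.18 (SE 0.110) in the library labelled shAsns-1 and 0.09 (SE 0.0906) with shAsns-2, where the fold had a 95% interval of 0.933 to 1.22 (edgeR adjusted p = 0.780) and its sign turned without shRenilla B (-0.02). Of its exon bases 15.1% are shared with Ulk4 and Mir7090.

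Axin2, the negative feedback scaffold that the pathway switches on in most tissues, had 0 reads in all 5 libraries. The 0 allows up to 0.188 to 0.291 CPM in single libraries, or 0.0341 to 0.0529 RPKM, and up to 0.0463 CPM over all 6.48e+07 gene reads, counting error only. Whether Axin2 follows Wnt7a or Lgr6 could therefore not be read from this table, and its changes were not detectable at this depth. In all, 4306 genes (18.3%) had 0 reads in every library. Of the Axin2 exon bases 96.2% overlap no other gene, and the rest are shared with Gm11670. The nearest protein-coding genes on either side that do not overlap Axin2 are Cep112 and E030025P04Rik. Cep112 lies 59734 bases before and had 59 to 79 reads in each library. E030025P04Rik lies 188508 bases after and had 0 to 3 reads. Genes of other types in between were not looked at. A gene listed at 0 in every library of a count table can also be one that the counting left empty, which was not tested.

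Per length, the members were ordered as follows in the controls. Mean levels in shRenilla were 227 ± 26.4 RPKM (SD, n = 2) for Ctnnb1, 28.9 ± 1.80 for Fzd7, 14.0 ± 1.81 for Lrp6 and 11.1 ± 0.443 for Wnt7b. Lrp5 followed at 7.86 ± 0.0382 RPKM, Lgr6 at 7.42 ± 0.269, Lgr4 at 4.87 ± 0.0717, Wnt7a at 3.17 ± 0.790 and Wnt10a at 1.08 ± 0.0566. The 2 control libraries of neighbouring genes in this order did not overlap. Lgr6 was 6th in shRenilla, 5th in shAsns-2 and 3rd in the library labelled shAsns-1, at 14.99 RPKM, and Wnt7a was 8th in each.

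The members' counts were read against those of all genes. In shAsns-2 edgeR called 0.0642% of all genes (8 genes, 0 without shAsns-2 A or shRenilla B and 47 without shRenilla A), 0 of the 9 members tested passed, and 1 (Lgr6) had an unadjusted p under 0.05; DESeq2 and limma-voom also called 0 members, with the same 1 at an unadjusted p under 0.05. Both shAsns-2 libraries lay above both controls at 3 members (Wnt7b, Wnt10a, Lgr6) and below at 1 (Lgr4), where 20.6% and 20.7% of all genes tested did so. The library labelled shAsns-1 lay above the other 4 at 4 members and below them at 2, where 27.5% and 28.3% of all genes did. Lgr6 is among those above and Wnt7a among those below, and both were selected on this library, so their places were fixed beforehand. The others are Wnt7b, Lgr4 and Ctnnb1 above and Wnt10a below, and no excess is read from them. For the count at an unadjusted p under 0.05, the share over all genes tested is not given. The contrasts share the shRenilla libraries, so their values are set side by side and not compared.

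**Figure D3:**
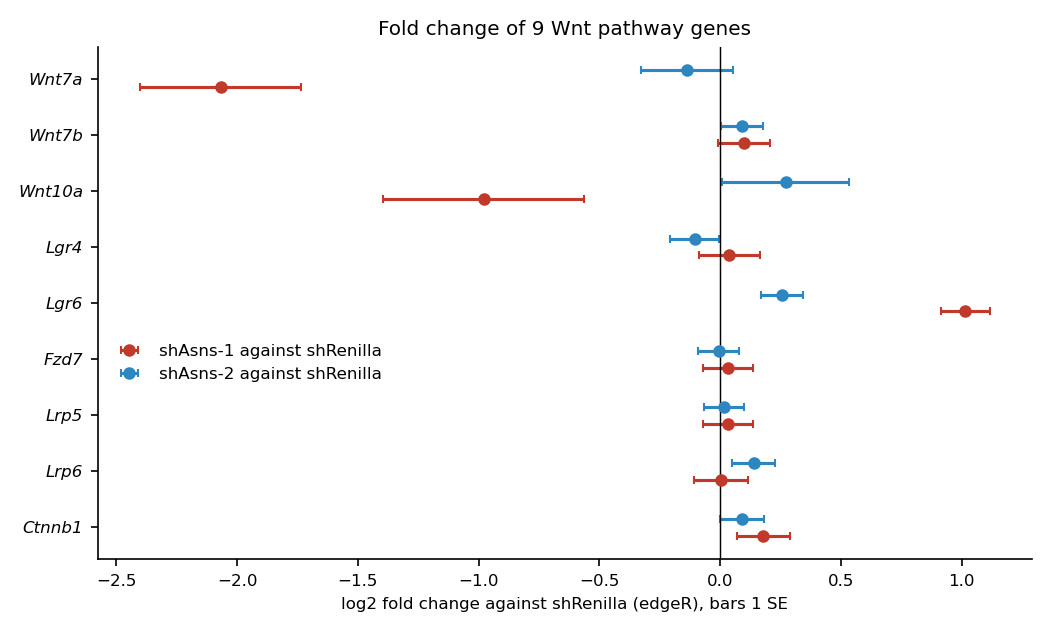
Log2 fold change against shRenilla of the 9 members with enough reads, for the library labelled shAsns-1 (red) and for shAsns-2 (blue), with bars of 1 SE from the edgeR fit. Wnt7a (-2.07), Wnt10a (-0.98) and Lgr6 (1.01) stand apart in red, and the blue points run from -0.14 to 0.27.

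The rest of the pathway was followed on 90 further genes listed by role, of which 52 had enough reads to be tested and 9 had 0 reads in every library. The 38 not tested reached at most 0.680 CPM in any library. In shAsns-2, 0 of the 52 passed the edgeR test, 4 were higher and 0 lower at an unadjusted p under 0.05, and DESeq2 and limma-voom also called 0. Their median log2 fold change was 0.06, against -0.00 for the whole set of tested genes. For the counts at an unadjusted p under 0.05, here and in the next contrast, the share over all genes tested is not given. Against shRenilla, 2 rose and 0 fell in the library labelled shAsns-1 (3.85% of 52, against 4.37% of all genes tested, so the share is no higher than the background), with 8 higher and 5 lower at an unadjusted p under 0.05 and a median of -0.03 against -0.01 over all genes tested. The count of 2 became 1 without shRenilla A and 5 without shRenilla B, and 5 with a replicate block.

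The 2 that rose act outside the cell. Reck, a membrane-anchored protein that serves Wnt7a and Wnt7b as a co-receptor with Gpr124, stood at 18.4 CPM in the library labelled shAsns-1, 13.3 and 12.7 CPM in shAsns-2 and 11.5 and 11.9 CPM in shRenilla. Its log2 fold change was 0.65 (SE 0.156, edgeR adjusted p = 0.0265) in the library labelled shAsns-1, and the call was lost without shRenilla A (0.63, adjusted p = 0.0826) and with DESeq2 (0.65, adjusted p = 0.176). Sfrp1, a secreted protein that binds Wnts, stood at 206 CPM in the library labelled shAsns-1, 168 and 144 CPM in shAsns-2 and 130 and 134 CPM in shRenilla. Its log2 fold change was 0.64 (SE 0.106, edgeR adjusted p = 0.00211), called in each alternative. In shAsns-2 the values were 0.15 (edgeR adjusted p = 0.749) for Reck and 0.24 (edgeR adjusted p = 0.412) for Sfrp1, which did not pass. At each gene both shAsns-2 libraries lay above both controls, where 20.6% of all genes tested did so, and nothing is read from this. Gpr124, the other Wnt7 co-receptor, was low at 1.02 to 1.94 CPM and passed neither test.

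The other lists held 0 called genes in either contrast. Among 16 further ligands 3 were tested and 0 called, with Wnt10b at 4.04 to 5.39 CPM and Wnt2b at 2.07 to 3.88 CPM. Wls, which carries Wnts to the cell surface, was at 75.05 CPM in the library labelled shAsns-1 and 53.9 to 64.9 CPM elsewhere (log2 fold change 0.34, edgeR adjusted p = 0.117; called with a replicate block, 0.43 and adjusted p = 0.0124, and without shRenilla B, 0.48 and adjusted p = 0.0185), and Porcn, which lipidates them, at 2.04 to 3.51 CPM. Of the R-spondins and their receptors 2 of 7 were tested, Znrf3 at 61.1 to 71.4 CPM and Rnf43 at 1.73 to 2.55 CPM, and the R-spondins themselves were all too low to be tested. Of 13 other receptors 10 were tested and 0 called, led by Fzd6 (151 to 159.5 CPM) and Ryk (97.2 to 115 CPM). Fzd4, another Frizzled, named after its values were seen, was at 2.98 CPM in the library labelled shAsns-1 and 4.66 to 6.58 CPM elsewhere (log2 fold change -0.95, SE 0.302, edgeR adjusted p = 0.0841). Fzd4 was called lower with no filter on low counts, with a replicate block and without shRenilla B. The list of secreted inhibitors, on which Sfrp1 stands, had 3 of 13 genes tested. Kremen1, a receptor of Dkk proteins and the other of its 2 most abundant genes, was at 16.5 to 19.9 CPM.

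All 11 genes of the destruction complex and Dishevelled list were tested and 0 were called in either contrast. Of the 11, the library labelled shAsns-1 was lower at 9, with a median log2 fold change of -0.13 (-0.01 over all genes tested). In shAsns-2 7 were lower, with a median of -0.03 (-0.00 over all genes tested). The share of all genes that were lower is not given here. The kinase Gsk3b was at 221 to 282 CPM and Csnk1a1 at 158 to 184 CPM. Of 13 nuclear factors 12 were tested and 0 called, with Bcl9l, a co-activator bound to beta-catenin, at 76.2 to 88.2 CPM and Ctnnbip1, an inhibitor of beta-catenin binding to TCF, at 24.4 to 31.2 CPM.

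**Figure D4:**
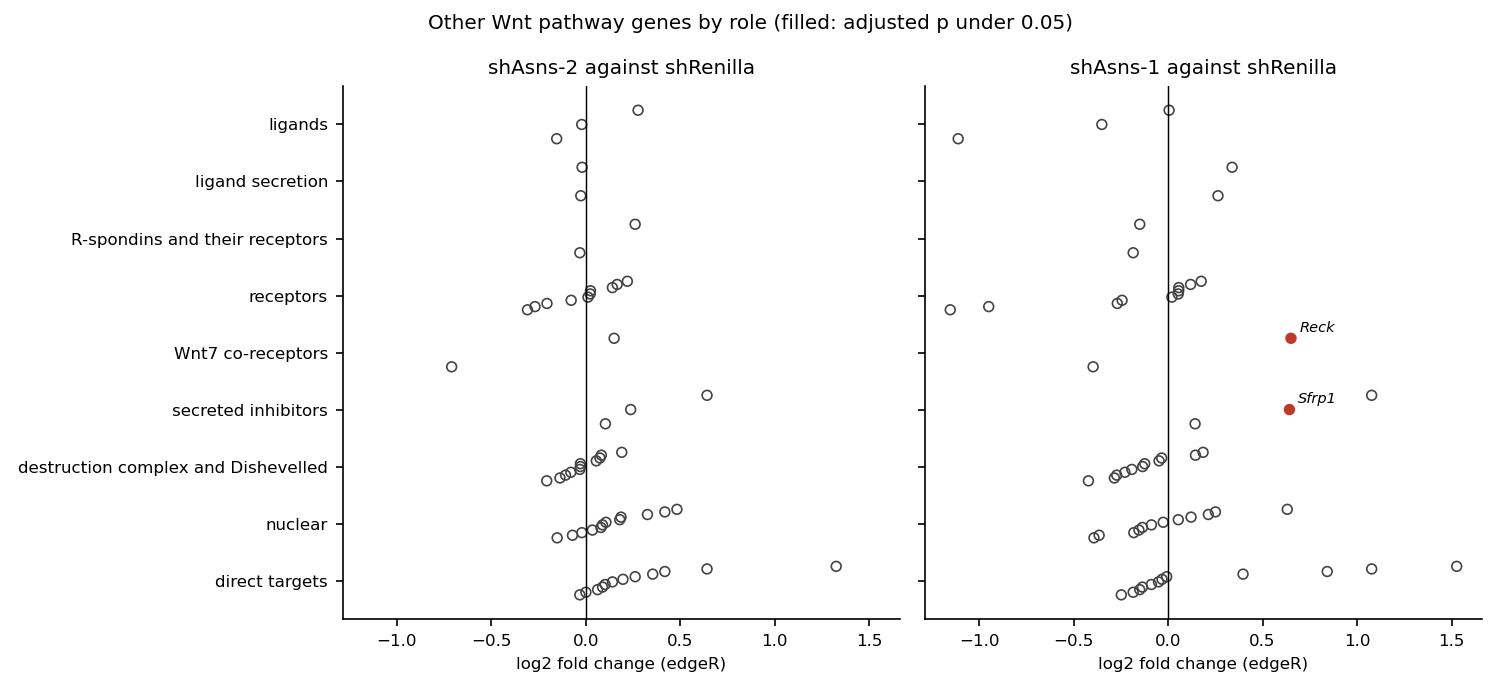
Log2 fold change against shRenilla (edgeR) of the tested genes of each role, each point 1 gene, for shAsns-2 (left) and the library labelled shAsns-1 (right), with genes at an adjusted p under 0.05 filled. Reck (0.65) and Sfrp1 (0.64) are the filled points, both on the right; Notum, Rnf43, Znrf3, Tcf7 and Lef1 stand on more than 1 list and are drawn on each.

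Since Axin2 gave no reads, other direct targets were read in its place. Of 20 listed, 12 were tested, and Sp5 and Dkk1 had 0 reads in every library like Axin2. In shAsns-2, 11 of the 12 were higher and 1 lower, and 0 were called. The median log2 fold change was 0.17, against -0.00 over all genes tested. Myc, at 0.0007, is counted among the 11, and the split was 10 and 2 with limma-voom, library totals only or a replicate block. The library labelled shAsns-1 had 4 higher and 8 lower (median -0.04), and 0 called. At an unadjusted p under 0.05, 4 were higher (Notum, Tnfrsf19, Apcdd1 and Wisp2) and 1 lower (Myc) in that library. The split of 4 higher and 8 lower moved to 6 higher and 6 lower without shRenilla A, and many of the listed targets also answer to other pathways. The share of all genes tested that were higher or lower, or under that unadjusted p, is not given here. No excess is therefore read from these counts.

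Notum, a secreted enzyme that strips the lipid from Wnts, was at 3.75 CPM in the library labelled shAsns-1, 2.33 and 3.13 CPM in shAsns-2 and 1.94 and 1.59 CPM in shRenilla. Its log2 fold change was 1.08 (SE 0.355, edgeR adjusted p = 0.0954) in the library labelled shAsns-1 and 0.64 (SE 0.299, adjusted p = 0.511) with shAsns-2. Tnfrsf19, a receptor of the TNF family, was at 7.70 CPM in the library labelled shAsns-1, 5.44 and 5.53 CPM in shAsns-2 and 3.20 and 5.46 CPM in shRenilla, with a log2 fold change of 0.84 (adjusted p = 0.0986) in the first. Both were highest in the library labelled shAsns-1, and neither passed in the fit reported here. Tnfrsf19 passed with no filter on low counts (edgeR adjusted p = 0.0157), with a replicate block (log2 fold change 1.05, adjusted p = 0.00644) and without shRenilla B (1.27, adjusted p = 0.0195), and stood at 0.49 without shRenilla A (adjusted p = 0.282). Notum passed with no filter (adjusted p = 0.0409). Apcdd1, a membrane inhibitor of Wnt, followed at 0.40 and 0.20 in the library labelled shAsns-1 and shAsns-2, and Wisp2, from 5 to 13 reads, at 1.53 and 1.33.

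The most abundant targets moved little. Ccnd1, the cyclin D1 gene, was at 2574 CPM in the library labelled shAsns-1, 2770 and 2881 CPM in shAsns-2 and 2715 and 2549 CPM in shRenilla, with log2 fold changes of -0.03 and 0.10. Myc was at 505 CPM, 656 and 546 CPM, and 584 and 616 CPM in the same order, with log2 fold changes of -0.25 (edgeR adjusted p = 0.228) and 0.00. Myc was lowest in the library labelled shAsns-1, and its shAsns-2 libraries straddled the controls. Cd44, an adhesion receptor, was at 969 CPM in that library and 1002 to 1125 CPM elsewhere. Lef1, Tcf7 and Rnf43 were at log2 fold changes of -0.09, -0.14 and -0.19 in the library labelled shAsns-1 and 0.42, 0.09 and 0.26 with shAsns-2, none called. Znrf3 was at -0.15 and -0.03, and Wisp1 at -0.01 and 0.06.

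The genes whose pattern lay closest to Wnt7a and Lgr6 over the 5 libraries were found by the root mean square distance between log2 levels, each gene centred on its own mean, among 8557 genes. For Wnt7a these were Rgs16 (0.215), Krt14 (0.229), Lamb3 (0.239), Havcr2 (0.270) and Adam12 (0.272). For Lgr6 they were Loxl3 (0.0483), Tslp (0.0728), Amigo2 (0.0739), Tgfbr3 (0.0757) and Sord (0.0909), at smaller distances. Krt14, a keratin of basal epithelium, was at 2.79 CPM in the library labelled shAsns-1 and 12.04 to 13.0 CPM elsewhere. Lamb3, a chain of laminin-332, was at 13.8 CPM there and 43.2 to 45.7 CPM elsewhere. Tslp, a cytokine of epithelia, was at 197 CPM in that library, 115 and 110 CPM in shAsns-2 and 86.7 and 92.8 CPM in shRenilla. Loxl3, a lysyl oxidase, was at 46.7, 29.5, 30.3, 25.5 and 24.4 CPM in the order used above. The likeness rests on 5 libraries, of which 1 carries most of the spread, and is a description.

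**Figure D5:**
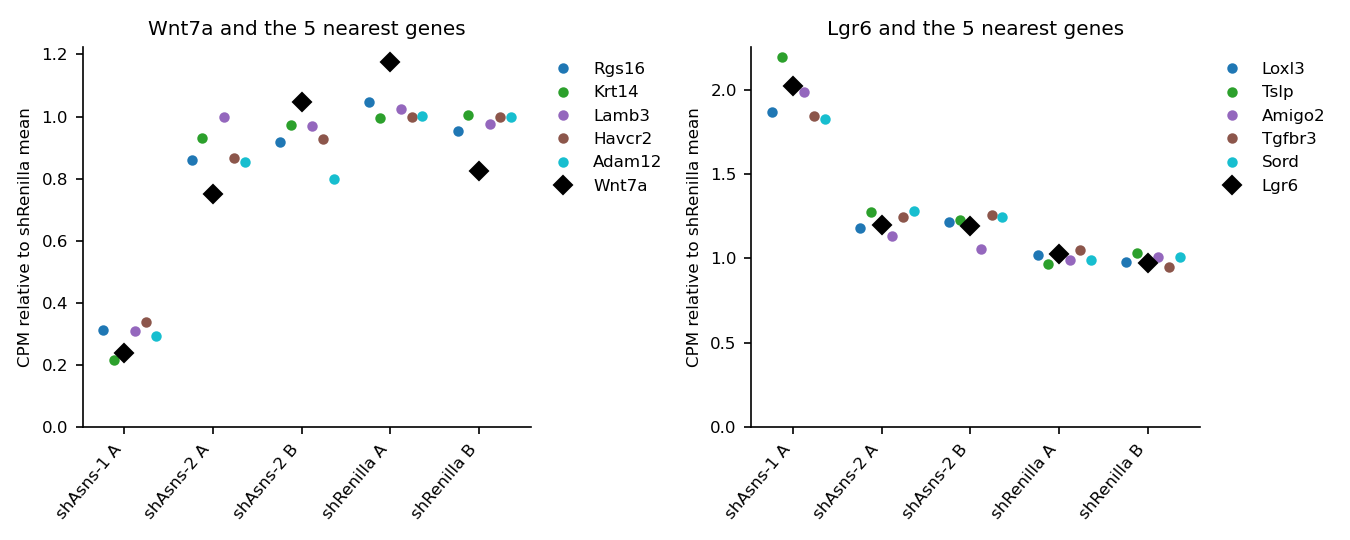
Level relative to the shRenilla mean (CPM ratio) of Wnt7a with its 5 nearest genes (left) and of Lgr6 with its 5 nearest (right) in each library, each point 1 gene. On the left all 6 are lowest in the library labelled shAsns-1; on the right all 6 are highest there and lowest in shRenilla.

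The base composition of transcripts also moved with that library. Over 8481 genes the Spearman correlation of the log2 fold change with GC content was -0.323 in the library labelled shAsns-1 and 0.0725 with shAsns-2, a description across genes. With that trend removed the log2 fold changes in the library labelled shAsns-1 were -1.99 for Wnt7a, -0.89 for Wnt10a and 1.08 for Lgr6.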

How the data were processed

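Messenger RNA of 4T1 cells carrying shAsns-1, shAsns-2 or shRenilla was sequenced, and the deposited table holds whole-number read counts per gene made by the authors, 1 column a library. Per the submitters' processing notes, Bowtie2, HTSeq and the build mm10 were used; per the labels' protocols RNA came from Trizol and the Nugen Ovation V2 kit. Versions: not given in the sources used here, nor the annotation and the strand mode. The shAsns-1 B column, 0 at every gene, and the HTSeq tallies below the genes were left out.

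Counts of 5 libraries were fitted with edgeR 4.0.16 (R 4.3.3): filterByExpr left 12457 genes, TMM scaling, 1 quasi-likelihood fit by hairpin with 2 residual degrees of freedom, Benjamini-Hochberg adjustment over all genes, call at an adjusted p under 0.05. The design took every library with reads, and the lone shAsns-1 library is assumed to vary like the others. The filter went by hairpin, and the smallest group held 1 library. A gene could thus enter on its reads in the library labelled shAsns-1 alone, and the ranks and shares for that library rest on this set. The script was tested on simulated data. RPKM divides CPM by GENCODE M21 exon length. Intervals cover 95%, and those of single libraries cover counting error only.

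The members, the lists and the tests were chosen with earlier results of these data known. Named were all members, called pathway genes, the 2 most abundant genes of each list by RPKM, tested direct targets, the 5 nearest patterns to Wnt7a and to Lgr6, and Asns; the marker Krt14 and Lum were named beside their lists. Alternatives were DESeq2 1.42.0, limma-voom (limma 3.58.1), other scalings and filters, a replicate block, removal of the GC trend, and leaving out each library. The letters A and B were not treated as pairs: across 12457 genes their deviations correlated at -0.0173. The replicate block adds a coefficient, so its fit has fewer residual degrees of freedom than the 2 of the main fit. Promoter windows come from a RefSeq table (GRCm38.p6).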

Additional observations from a re-analysis of the deposited data

Results flagged for a closer look

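At 5 of 36 genes with enough reads (the members, Asns and the pathway genes the naming rule gives), the library labelled shAsns-1 lay on one side of both shRenilla libraries and both shAsns-2 libraries on the other; over all genes tested 1082 (8.69%) did so. Set beside each other, with the library labelled shAsns-1 before shAsns-2, log2 fold changes against shRenilla were -0.979 and 0.27 for Wnt10a, 0.0382 and -0.11 for Lgr4, -0.185 and 0.26 for Rnf43, -0.0509 and 0.14 for Cd44, and 0.921 and -0.34 for Asns. The difference between the hairpins was not tested at these genes.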

How the results depend on the processing

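Members in shAsns-2 had 0 calls under each of the 13 alternatives, of which the fit without the library labelled shAsns-1 was chosen after seeing the data. Genes called in shAsns-2 against shRenilla numbered 8, against 114 with no filter on low counts, 2 with a stricter filter and 178 with a replicate block. Leaving out single libraries gave 0 (without shAsns-2 A, and without shRenilla B) to 47 (without shRenilla A). Genes called in the library labelled shAsns-1 numbered 544, against 253 with DESeq2, 919 with no filter and 924 with the block, and from 290 (shAsns-2 A left out; 300 with shAsns-2 B left out) to 825 (without shRenilla B). Of the pathway lists, the count in shAsns-2 went from 0 to 1 (Bcl9) with the replicate block. In the library labelled shAsns-1 it went from 2 to 1 (Sfrp1) with DESeq2, 5 with no filter and 5 with the block, and from 1 (without shRenilla A) to 5 (without shRenilla B). With no filter Fzd4, Notum and Tnfrsf19 joined Reck and Sfrp1, and with the block, or without shRenilla B, Fzd4, Tnfrsf19 and Wls did. Bcl9 and Fzd4 were named after their values were seen. Where counts moved, the cause was not tested.

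Signs near 0 turned. In shAsns-2 Myc went from 0.0007 to -0.0051 (limma-voom), -0.0283 (library totals only), -0.0022 (no filter) and -0.0043 (replicate block), and Lrp5 and Fzd6 to -0.0139 and -0.0033 (library totals only). In the library labelled shAsns-1 Wisp1 went from -0.0078 to 0.0008 (limma-voom), 0.0035 (library totals only) and 0.0945 (replicate block), Ccnd1 to 0.0136 with the GC trend removed, Wnt2b to -0.0155 (no filter) and -0.2583 (replicate block), and Fzd6 to -0.0004 (no filter). With single libraries left out, log2 fold changes in shAsns-2 ranged from -0.4165 to 0.1519 for Wnt7a, -0.0753 to 0.0597 for Fzd7, -0.0173 to 0.0477 for Lrp5, -0.0224 to 0.2165 for Ctnnb1, -0.104 to 0.05 for Znrf3, -0.0033 to 0.1909 for Tcf7, -0.137 to 0.1278 for Myc and -0.0715 to 0.2091 for Wisp1. In the library labelled shAsns-1 they ranged from -0.2458 to 0.1049 for Lef1, -0.0764 to 0.0148 for Ccnd1 and -0.1432 to 0.138 for Wisp1. Among the abundant genes of each list the ranges were -0.0982 to 0.638 for Wnt2b, -0.1544 to 0.1139 for Wls, -0.4974 to 0.3644 for Porcn, -0.0129 to 0.065 for Fzd6, -0.1788 to 0.0128 for Ryk, -0.0133 to 0.2286 for Kremen1 and -0.1651 to 0.1913 for Ctnnbip1 in shAsns-2, and -0.2028 to 0.2699 for Wnt2b, -0.0178 to 0.645 for Porcn, -0.0183 to 0.0601 for Fzd6, -0.0117 to 0.1286 for Ryk and -0.1892 to 0.1113 for Gsk3b in the library labelled shAsns-1. Counts of few reads limit Wnt10a and Wisp2.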
